A study of Danio rerio with 24 samples.

Results

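In GFP+ cells of zebrafish larvae, 335 genes had low RNA levels 1 h after neomycin and levels near mock at 5 h. They were chosen from 31087 gene identifiers by the group means of FPKM, which scales fragments to transcript length and to the mapped fragments of a library. The ratio used was (mean FPKM + 1) over (mock mean FPKM + 1) in GFP+ cells. A gene was chosen when its ratio was 0.5 or less at 1 h and between 0.8 and 1.25 at 5 h, and its mock mean was 5 FPKM or more. Of 346 genes within these bounds, 11 were left out by identifier. The choice used the 9 GFP+ libraries of mock, 1 h and 5 h, so the fall at 1 h and the level at 5 h are the definition of the set and were not tested. The 3 h GFP+ libraries and the 12 GFP- libraries were not used by the rule.

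All 24 libraries came from larvae of the transgenic line Tg(sqET20) at 5 days post fertilization, sorted by FACS into living GFP+ and GFP- cells, with about 30000 cells per library. Each population has 4 groups of 3 libraries, which are mock at 1 h and larvae 1, 3 and 5 h after a 30 min bath in 300 µM neomycin. As background, Tg(sqET20) is an enhancer trap line with GFP in cells of the lateral line neuromasts, among them the supporting cells that remain after neomycin, an aminoglycoside, kills the hair cells. Every library was made from pooled larvae, and the labels do not say whether the 3 libraries of a group came from separate batches of larvae, so p-values measure the spread between these libraries, which may be technical. The mock and 1 h libraries are labelled with an experiment date in March and the 3 h and 5 h libraries with one in April. Mock larvae were sampled at 1 h only. A level at 3 h or 5 h against mock can therefore not be told apart from the date or the later hour of sampling.

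A neuromast is a small sensory organ of mechanosensory hair cells surrounded by supporting cells, with mantle cells at its rim. After hair cells die, supporting cells divide and differentiate into new ones, and Wnt, Fgf, Notch and Bmp signals take part in this. Transcription factors of the homeobox, Fox, Sox and Gata families set cell identity during development. In bulk libraries, fewer cells of a type and less RNA per cell cannot be told apart.

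By mock means, 7 of 11 lateral line and supporting cell markers and 10 of 12 hair cell markers were higher in GFP+ than in GFP- cells, without a test. The lateral line markers cxcr4b, lef1, prox1a and isl1 went the other way, with 9.24, 8.45, 5.005 and 26.3 FPKM in GFP+ and 25.2, 25.7, 40.6 and 59.6 FPKM in GFP- mock, as did the hair cell markers tmc1 and pcdh15a. The 7 epidermis markers were higher in GFP+ and the 7 matched blood and 5 matched neuron markers higher in GFP- mock. The summed FPKM of the 11 lateral line markers, of which the keratin krt15 made up a mean of 4019 FPKM, ranged from 5405 to 6857 in GFP+ mock libraries. The range was 2633 to 4369 for 1 h, 1955 to 2369 for 3 h and 2629 to 3904 for 5 h libraries, and 214.8 to 228.7 for GFP- mock libraries. The marker klf17 is also among the 335 genes. The sum of 12 hair cell markers was 2358 to 3237 in GFP+ mock and 2223 to 2455 at 1 h, and the later libraries held 1033 to 1794 (3 h) and 1373 to 1734 (5 h). Most of this sum came from s100t and pvalb9, with means of 1394 and 1066 FPKM in GFP+ mock and 510.1 and 546.3 at 3 h. Other hair cell markers did not fall alike. From GFP+ mock to 3 h, otofb had means of 211.3 and 182.8 FPKM, tmc2b 26.66 and 25.21, and atoh1a 29.28 and 50.73. The sum of the 7 epidermis markers overlapped across the GFP+ groups, with 8461 to 13640 in mock and 7782 to 11700 at 1 h. Single markers went both ways from GFP+ mock to 1 h. Means were 866.9 and 2074 FPKM for epcam and 1091 and 1247 for anxa1, but 3971 and 2959 for krt4, 2891 and 1692 for krt5 and 1552 and 966.1 for cyt1. The sum of the 7 matched blood markers, of 9, was 148.5 to 309.5 in GFP+ mock and 175.2 to 436.5 at 1 h, and the later libraries held 459.2 to 864.3 (3 h) and 332.8 to 693.4 (5 h). The 5 matched neuron markers, of 6, summed to 12.38 to 19.05 in GFP+ mock and 23.49 to 38.65 at 3 h, and the 4 muscle markers to 31.81 to 33.04 in mock and 26.8 to 38.41 at 1 h. No marker in these lists had a group mean of 0. Depth relative to the median library, read from low values, ran from 0.727 to 1.27 over all libraries.

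The set was of ordinary abundance. The mock mean had a median of 13.6 FPKM over the 335 genes and ran from 5.08 to 334, against a median of 13.6 FPKM for all 11123 genes at the same mock level of 5 FPKM or more, called the floor here. Mock means were under 20 FPKM for 232 genes and 100 FPKM or more for 7, the highest being the keratin krt1-c5. In the table of gene names, 277 of the 335 had a symbol and 58 had none, and 40 of the symbols were clone names. Capitals mark the symbol of a mammalian ortholog, so 2 zebrafish genes can share one.

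At 1 h the ratio had a median of 0.439 over the 335 genes and ran from 0.061 to 0.499, and at 5 h its median was 0.998. For all genes at the floor the medians were 0.918 at 1 h and 1.08 at 5 h. Of the floor genes, 686, or 6.17%, had a 1 h ratio of 0.5 or less. Among these, 256 stayed under 0.8 at 5 h, 80 were over 1.25, and the rest were within the bounds or left out by identifier. In the 3 libraries of 1 h, the median gene of the set stood at 0.41, 0.404 and 0.46 of the mock mean, and in the 5 h libraries at 1.01, 0.998 and 0.956. All 3 libraries at 1 h lay below all 3 mock libraries for 308 of the 333 genes of the set that were tested, beside 21.5% of all 21860 tested genes; the rule used this contrast. The coefficient of variation between libraries had a median of 15.2% in mock, 21.97% at 1 h, 15.01% at 3 h and 12.6% at 5 h.

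Genes just inside and just outside the bounds had nearly the same values. Just inside the 1 h bound stood ANKRD13A at a ratio of 0.499, COQ9 at 0.499 and MGAT2 at 0.499, and just outside it UAP1L1, TMEM30B and tfdp2, each at 0.500. At the lower 5 h bound, GXYLT1 at 0.804, PPFIBP1 at 0.805 and ADAMTS18 at 0.808 were in, and POSTN at 0.798, SIX2 at 0.796 and RAPGEF1 at 0.793 were out. At the upper bound, ANKRD13A and ehmt1a at 1.25 and gbgt1l4 at 1.24 were in, and pparg and krt1-19d at 1.26 and NIBAN1 at 1.27 were out. By mock mean, ADAMTS18 at 5.08 FPKM, chl1a at 5.10 and gng14 at 5.17 were in, and gkup at 4.73, TMEM218 at 4.63 and BIRC7 at 4.59 were out.

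**Figure D1:**
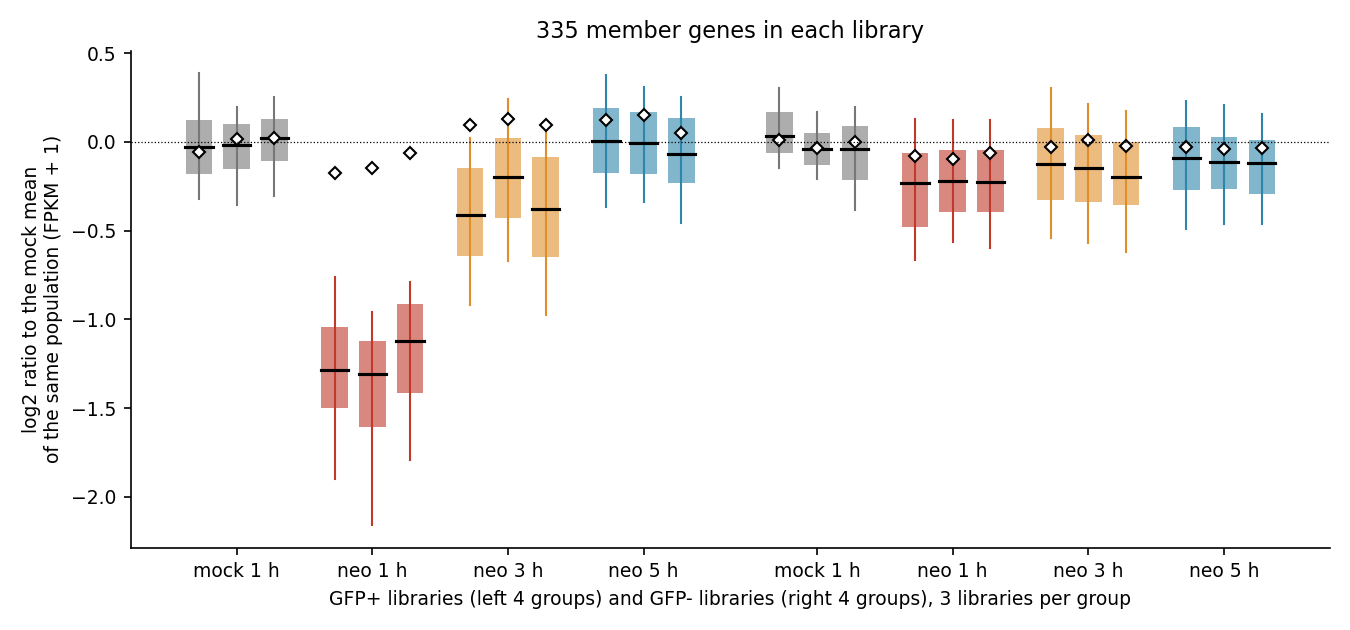
Log2 ratio of the 335 genes to the mock mean of the same population, (FPKM + 1), for each of the 24 libraries; lines inside the boxes are medians, boxes span the quartiles, whiskers the outer deciles, and diamonds are the medians of all genes at the floor. In GFP+ cells the 3 libraries of 1 h sit lowest, the 3 h libraries lie between them and mock, and the GFP- libraries of 1 h sit below 0 by far less.

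At 3 h, a time that the rule did not use, most of the genes had left the 1 h level and about as many were within the mock range as below it. The ratio to mock had a median of 0.806 and a middle range of 0.695 to 0.935, against a median of 1.08 for all genes at the floor. In the 3 libraries of 3 h the median gene stood at 0.752, 0.872 and 0.769. The 3 h ratio was between 0.8 and 1.25 for 165 of the 335 genes, or 49.3%, over 1.25 for 7, above 0.5 but below 0.8 for 149, or 44.5%, and 0.5 or less for 14. Of all 11123 genes at the floor, 47.3% were between 0.8 and 1.25 and 4.12% at 0.5 or less, near the shares of the set. Above 0.5 but below 0.8 were 15.9% of the floor genes, and 32.7% were over 1.25. The 3 h ratio was higher than the 1 h ratio for 327 of the 335, beside 7100 of the 11123. Every 3 h library was above every 1 h library for 276 of the 333 tested genes, beside 30.6% of all tested genes. Every 3 h library was below every mock library for 125 of them, beside 11.8% of all tested genes. These counts share the mock or 1 h libraries with the rule and are given as a description. With libraries scaled by the median of ratios the 3 h median was 0.709, and with quantile scaling 0.722, so the position of the set relative to mock at 3 h depended on the scaling. The 256 genes with the same fall at 1 h that stayed under 0.8 at 5 h had a median 3 h ratio of 0.395, and the 80 that ended over 1.25 had one of 1.18.

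**Figure D2:**
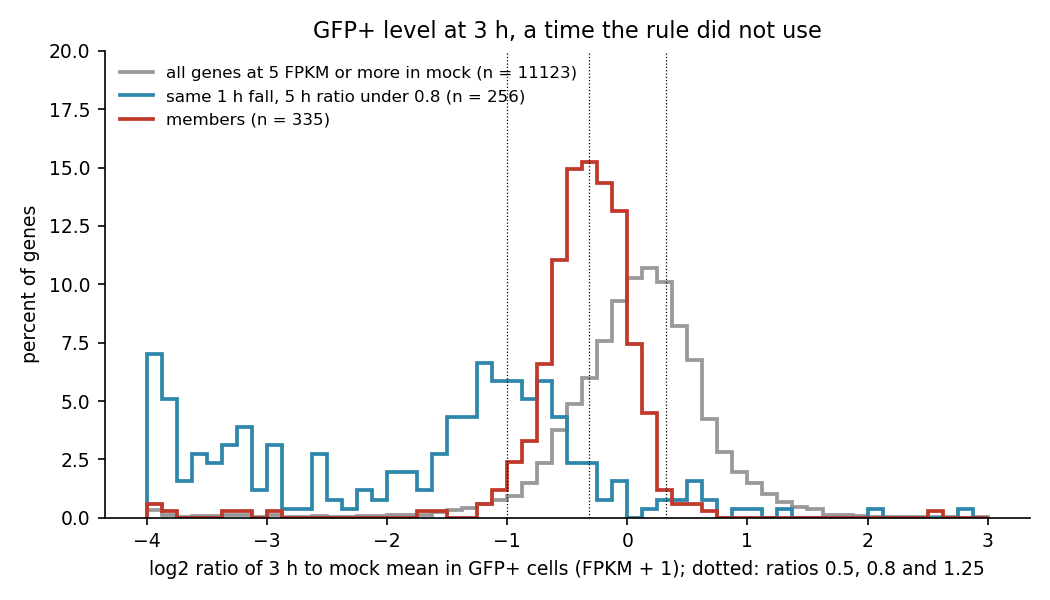
Distribution of the log2 ratio of the 3 h mean to the mock mean in GFP+ cells (FPKM + 1), as percent of genes, for all genes at the floor (grey), the 256 genes with the same 1 h fall that stayed under 0.8 at 5 h (blue) and the 335 genes (red); values beyond the axis are put in the end bins. The 335 genes have a broad top around a ratio of 0.8, between the other 2 distributions.

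Developmental transcription factors made up the largest named group. Of 394 tested genes of the homeobox, Sox, Fox, Gata and Klf kind, 15 were in the set, or 3.81%, and 1 more was left out by identifier. The set was 1.52% of all tested genes. Only genes at the floor could be members, and the set held 15 of the 202 of this list there, beside 333 of all 11086 tested. The 15 are BARX2, six2b, MEIS1, NKX3-2, HOXC5, nkx2.7 and DLX2 of the homeobox class, FOXL2, FOXQ1 and its paralog foxq1b, SOX9, the Krüppel-like factors and relatives klf17 and SP8, gata2b, and the bZIP factor MAF. Several of these are described although the naming rule took only those with the lowest 1 h ratios, to complete the list. Among the other 378 tested genes of the list, in GFP+ cells at 1 h, 75 were lower than mock, 35 higher and 268 did not pass (limma, adjusted p under 0.05), beside 19.1% lower and 13.9% higher of all tested genes. Here and for the lists below, such counts leave out the genes of the set, while the shares of all tested genes include them. SALL1 and SOX4 had the smallest p-values among the other 378 genes and rose, from mean levels of 2.12 and 27.9 FPKM in mock to 20.7 and 86.7 FPKM.

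BARX2, a homeobox factor of epithelial and muscle development, had 21.6, 15.5 and 28.4 FPKM in mock, 5.45, 2.55 and 6.22 at 1 h, 20.9, 28 and 20.98 at 3 h and 23.1, 27.8 and 19.5 at 5 h. The 3 libraries of 1 h were the lowest and did not overlap with any other GFP+ group, while mock, 3 h and 5 h overlapped. six2b, a Six-family homeobox factor, had 38.9, 66 and 62.2 FPKM in mock, 9.76, 19.1 and 21.7 at 1 h, 36.2, 38.97 and 35.97 at 3 h and 39.3, 43.5 and 55.7 at 5 h. All 3 h libraries lay above all 1 h libraries, and the first mock library lay within the 3 h range. Its mean ratio was 0.671 at 3 h and 0.832 at 5 h. gata2b, a Gata zinc finger factor known for blood stem cell development in zebrafish, had 7.89, 9.07 and 8.58 FPKM in mock, 1.52, 2.05 and 2.54 at 1 h, 8.42, 9.85 and 7.12 at 3 h and 10.5, 11.4 and 9.48 at 5 h. Mock and 3 h overlapped, every 5 h library was above mock, and the 1 h libraries stood below all others.

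MEIS1, a homeobox cofactor of Hox proteins, varied little between libraries. It had 68.5, 65.3 and 68.3 FPKM in mock, 25.8, 30.1 and 32.02 at 1 h, 69.6, 77.8 and 76.4 at 3 h and 74.5, 70.9 and 71.4 at 5 h. The 3 h and 5 h libraries were all above mock, with mean ratios of 1.11 and 1.07. NKX3-2, known for jaw joint and skeletal development, had 20.3, 28.4 and 24.9 FPKM in mock, 8.299, 12.2 and 11.7 at 1 h, 22.3, 31.2 and 23.3 at 3 h and 20.02, 24.6 and 30.6 at 5 h. The 1 h libraries were low, and the other 3 groups overlapped. FOXL2, a forkhead factor known for its role in the ovary, had 14.4, 18.4 and 19.9 FPKM in mock, 6.904, 6.82 and 7.51 at 1 h, 15.7, 14.9 and 18 at 3 h and 21.8, 11.3 and 14.1 at 5 h, again with the 1 h libraries below all others.

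SOX9, a factor of cartilage and of several epithelial progenitors, had 19.8, 20.6 and 31.3 FPKM in mock, 8.57, 9.46 and 12.6 at 1 h, 21.6, 27.6 and 22.9 at 3 h and 28, 31.2 and 26.2 at 5 h. The 1 h libraries were lowest, and mock, 3 h and 5 h overlapped. FOXQ1, a forkhead factor of epithelia, was uneven, with 30.7, 70.3 and 55.5 FPKM in mock, 26.4, 19.3 and 28.5 at 1 h, 51.5, 55.7 and 48.7 at 3 h and 81.1, 55.4 and 34.7 at 5 h. Its first mock library lay just above the 1 h range, and mock, 3 h and 5 h overlapped. Its paralog foxq1b had 23.6, 16.2 and 12.8 FPKM in mock, 12, 3.02 and 4.22 at 1 h, 10.7, 13.4 and 13.2 at 3 h and 23.6, 11.2 and 9.72 at 5 h, and its first 1 h library lay within the 3 h and 5 h ranges. Whether reads that fit both paralogs were split between them was not tested.

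The remaining factors stood between the 1 h and mock levels at 3 h, or near mock. nkx2.7, an Nk2 homeobox gene known for heart and pharyngeal development, had 28.8, 36.4 and 27.7 FPKM in mock, 6.82, 16.3 and 14.9 at 1 h, 23.04, 21.9 and 17.6 at 3 h and 22.6, 27.4 and 29.3 at 5 h, with all 3 h libraries between the 1 h and mock ranges. klf17, a Krüppel-like factor known in zebrafish for the hatching gland, had 74.4, 87.01 and 69.8 FPKM in mock, 41.2, 26.1 and 27.4 at 1 h, 52.2, 67.7 and 54.7 at 3 h and 98.5, 84.7 and 88.2 at 5 h. The 3 h libraries lay above 1 h and below mock, and the 5 h libraries overlapped with mock. SP8, DLX2, HOXC5 and MAF had 3 h ratios of 0.768, 0.82, 0.767 and 0.915. HOXC5 and MAF were at low levels, with mock means of 5.34 and 7.01 FPKM, and MAF overlapped between mock and 1 h.

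**Figure D3:**
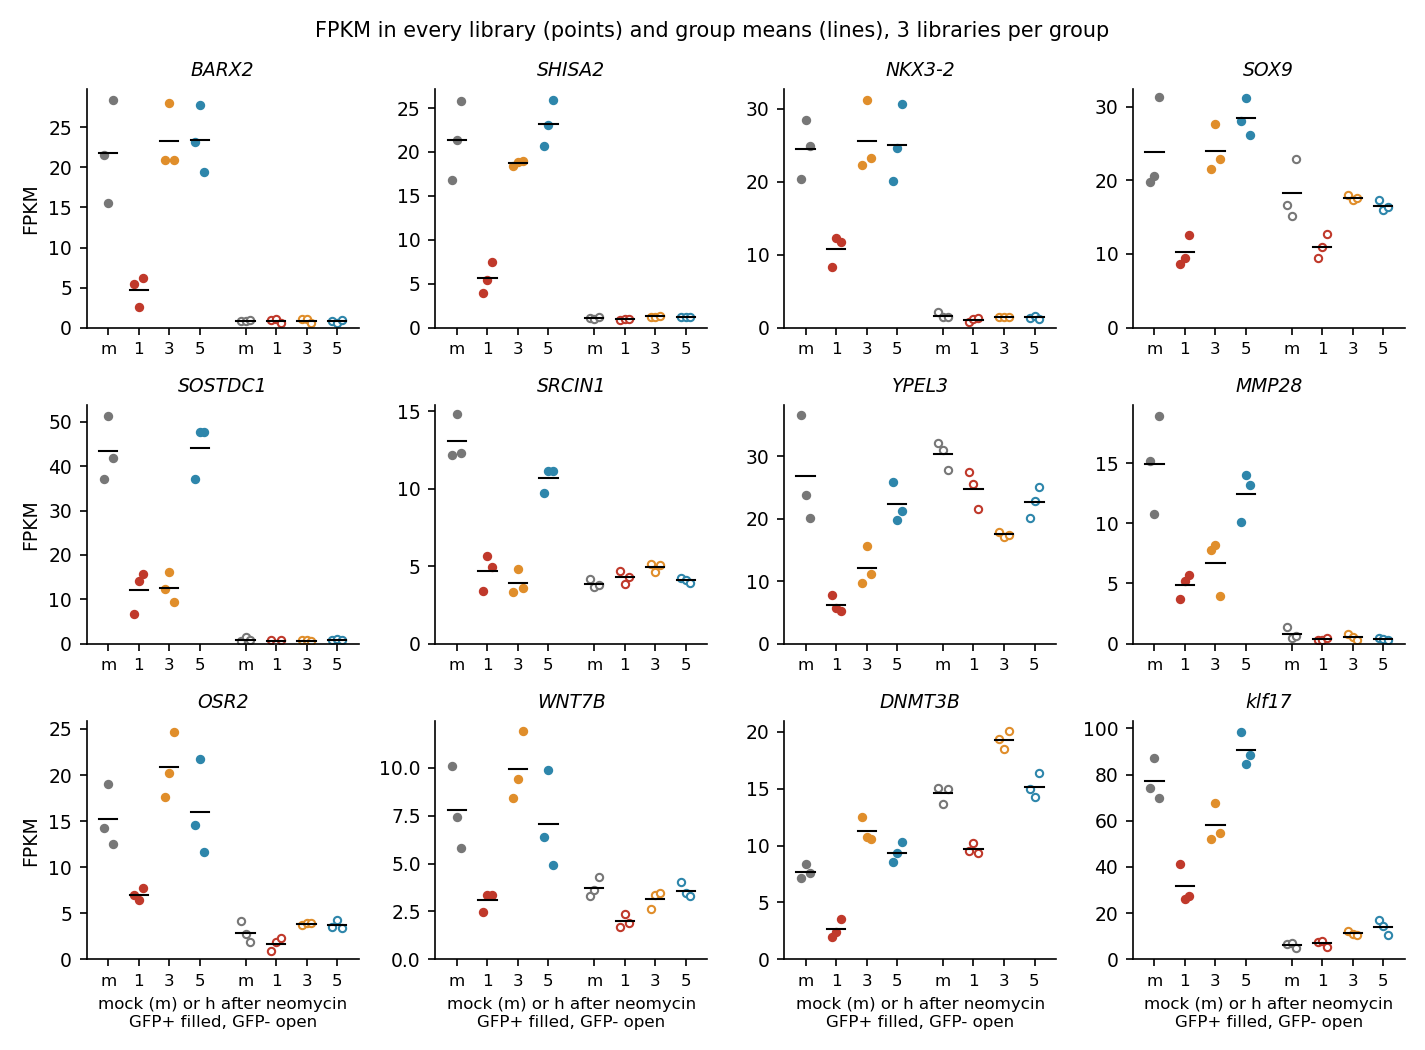
FPKM of 12 of the genes in every library (points) with group means (lines); filled points are GFP+ and open points GFP- cells, m is mock and 1, 3 and 5 are hours after neomycin. BARX2, SHISA2, NKX3-2 and SOX9 were back in the mock range at 3 h, SOSTDC1, SRCIN1, YPEL3 and MMP28 were still below their mock means at 3 h, and OSR2, WNT7B and DNMT3B had 3 h means above mock.

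Of the 17 lists, Wnt signalling had the highest share of its tested genes in the set, an order that depended on the base. Of 78 tested Wnt genes 6 were members, or 7.69%, beside 1.52% of all tested genes, and 3 more were left out by identifier. At the floor, where alone genes could be members, 6 of 57 Wnt genes and 4 of 31 G protein-coupled receptors were members, beside 333 of all 11086. The 6 are the ligands WNT4 and WNT7B, the cytoplasmic transducer DVL1, the DVL-binding inhibitor NKD2, the nuclear factor TCF7L2 and the planar polarity protein VANGL1. Of the other 69 tested Wnt genes, 23 were lower at 1 h in GFP+ cells, 3 higher and 43 did not pass. Of all tested genes 19.1% were lower and 13.9% higher. FZD8 and FZD3, Wnt receptors, had the smallest p-values and fell from 39.0 to 20.8 FPKM and from 7.83 to 3.47 FPKM; at 3 h FZD8 had a mean of 21.0 and FZD3 one of 7.44 FPKM.

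Among the ligands, WNT4 had 6.64, 7.44 and 8.01 FPKM in mock, 1.19, 3.32 and 3.65 at 1 h, 6.27, 6.98 and 5.099 at 3 h and 5.504, 6.603 and 6.82 at 5 h, and WNT7B had 10.1, 7.44 and 5.83 FPKM in mock, 2.497, 3.35 and 3.38 at 1 h, 8.44, 9.42 and 11.9 at 3 h and 6.41, 9.89 and 4.92 at 5 h. Both were lowest at 1 h in every library, and WNT7B had a mean ratio of 1.24 at 3 h with 3 h libraries that overlapped mock. TCF7L2, which binds DNA together with beta-catenin, had 22.9, 36.01 and 37.5 FPKM in mock, 9.82, 13.02 and 19.6 at 1 h, 33.6, 44.9 and 30.4 at 3 h and 31.2, 39.5 and 36.5 at 5 h. Its 1 h libraries were below all others, and its 3 h and 5 h libraries overlapped mock. DVL1, which carries the signal from Frizzled receptors, had 18.04, 29.6 and 20.7 FPKM in mock, 4.74, 10.7 and 11.5 at 1 h, 13.4, 15.9 and 10.4 at 3 h and 17.4, 21.6 and 15.8 at 5 h. It was among the slower genes, with a 3 h ratio of 0.598 and 3 h libraries that were all below mock and overlapped 1 h. NKD2 had 7.598, 17.6 and 14.4 FPKM in mock, 3.36, 5.91 and 6.13 at 1 h, 13.4, 12.4 and 14.1 at 3 h and 14.9, 10.2 and 9.38 at 5 h, with 1 low mock library close to the 1 h range. VANGL1 was at low level, from 6.11 FPKM on average in mock to 2.53 at 1 h, 5.52 at 3 h and 7.24 at 5 h.

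Secreted and membrane modulators of Bmp, Wnt and Fgf signals were also present. BMP3, a ligand of the Bmp family that antagonises other Bmps, had 20.2, 28.8 and 27.9 FPKM in mock, 10.9, 13.7 and 12.3 at 1 h, 23.5, 21.6 and 20.8 at 3 h and 23.9, 21.7 and 23.03 at 5 h. Its 1 h libraries were below all others, and its 3 h libraries overlapped mock. BMP3 was the 1 member among 73 tested Bmp and Tgf-beta genes, or 1.37%, near the 1.52% of all tested genes. Of the other 72 genes 13 were lower and 11 higher at 1 h in GFP+ cells, beside 19.1% lower and 13.9% higher of all tested genes. SOSTDC1, a secreted antagonist of Bmp and Wnt ligands, had 37.1, 51.3 and 41.9 FPKM in mock, 6.64, 14.01 and 15.7 at 1 h, 12.3, 16.1 and 9.29 at 3 h and 37.1, 47.7 and 47.8 at 5 h. It was as low at 3 h as at 1 h, and all 3 h libraries were far below mock, whereas the 5 h libraries overlapped mock. SHISA2, which in frog and mouse holds back Wnt and Fgf receptors in the endoplasmic reticulum, had 16.8, 21.4 and 25.8 FPKM in mock, 3.99, 5.38 and 7.44 at 1 h, 18.4, 18.9 and 18.9 at 3 h and 20.7, 23.1 and 25.9 at 5 h. Its 3 h libraries were close to one another and within the mock range. The lists of Fgf, with 34 tested genes, Notch with 50, Hedgehog with 19 and Hippo with 31 held no member, although 2 Fgf genes and 1 Notch gene were left out by identifier. The set was 1.52% of all tested genes, so 0 members is near that share for lists this small. Of their other genes in GFP+ cells at 1 h, 10 of 32 in the Fgf list were lower and 1 higher, 11 of 49 in the Notch list lower and 2 higher, 7 of 19 in the Hedgehog list lower and 0 higher, and 6 of 31 in the Hippo list lower and 9 higher (limma), beside the 19.1% lower and 13.9% higher of all tested genes.

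Receptors and guidance molecules gave 5 named genes. The membrane semaphorin sema4e was the 1 member of 84 tested axon guidance genes, or 1.19%, beside 1.52% of all tested genes. It had 16.3, 11.8 and 15.8 FPKM in mock, 2.22, 3.03 and 3.28 at 1 h, 9.01, 13.5 and 8.75 at 3 h and 14.4, 16.6 and 17.5 at 5 h. GPR37, an orphan receptor known in glia, had 6.36, 8.55 and 9.31 FPKM in mock, 1.08, 1.02 and 1.897 at 1 h, 5.06, 9.74 and 4.71 at 3 h and 6.72, 7.82 and 7.06 at 5 h. LPAR2, a receptor for lysophosphatidic acid, had 25.3, 21.3 and 29.04 FPKM in mock, 9.18, 7.44 and 10.97 at 1 h, 20.7, 22.4 and 21.5 at 3 h and 24.7, 27.04 and 22.8 at 5 h. In all 3 genes the 1 h libraries were below every other GFP+ library. CXCR4, a chemokine receptor with roles in cell migration, had 4.17, 7.28 and 8.84 FPKM in mock, 2.08, 2.42 and 2.98 at 1 h, 4.303, 4.53 and 3.85 at 3 h and 6.55, 7.66 and 5.801 at 5 h. Its first mock library was within the 3 h range, and its 5 h libraries overlapped mock. GPR137C stood at a ratio of 0.467 at 1 h and 0.701 at 3 h. These 4 receptors were the members among 175 tested G protein-coupled receptors, or 2.29%, beside 1.52% of all tested genes. At the floor they were 4 of 31 tested receptors, beside 333 of all 11086 tested genes.

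Epithelial adhesion and cytoskeleton genes stood at different levels at 3 h. krt1-c5, a keratin by its name, was the most abundant gene of the set, with 322, 329.7 and 350.4 FPKM in mock, 147, 153 and 130.4 at 1 h, 278, 332 and 244 at 3 h and 272, 409.5 and 373 at 5 h. Its 1 h libraries were below all others and its 3 h libraries overlapped mock. ITGA3, an integrin subunit that binds laminin, had 32.97, 36.04 and 37.3 FPKM in mock, 7.42, 18.9 and 15.9 at 1 h, 22.8, 30.7 and 23.4 at 3 h and 29.04, 32.3 and 35.1 at 5 h, with 3 h libraries below mock and above 1 h. col17a1a, a collagen of hemidesmosomes, was uneven, with 13.7, 8.04 and 31.4 FPKM in mock, 5.12, 4.74 and 8.33 at 1 h, 11.9, 14.4 and 7.16 at 3 h and 9.94, 13 and 25.5 at 5 h, and its mock and 1 h libraries overlapped. The gap junction gene gjb9a and the tetraspanin TSPAN11 had 3 h ratios of 0.734 and 0.742. These 5 were the members among 196 tested adhesion, junction and keratin genes, or 2.55%, beside 1.52% of all tested genes, and 2 more were left out by identifier. At the floor they were 5 of 128 tested genes of the list, beside 333 of all 11086. Of the other 189 genes, 35 were lower and 33 higher at 1 h, beside 19.1% lower and 13.9% higher of all tested genes.

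WASF1, which activates actin branching through the Arp2/3 complex, had 12.8, 16.2 and 18.8 FPKM in mock, 3.95, 3.05 and 5.32 at 1 h, 10.6, 9.49 and 11.4 at 3 h and 16.1, 20.4 and 16.3 at 5 h. Its 3 h libraries lay between the 1 h and mock ranges. DENND2D, an exchange factor for Rab proteins, had 21.4, 16.1 and 19.7 FPKM in mock, 5.98, 4.18 and 5.48 at 1 h, 17.8, 17.7 and 14.1 at 3 h and 20.8, 25.02 and 22.7 at 5 h, and its 3 h libraries overlapped mock. RHBDL2, a protease that cuts within membranes, had 29.7, 28.2 and 34.1 FPKM in mock, 7.58, 6.203 and 9.32 at 1 h, 21.1, 22.8 and 19.1 at 3 h and 28.97, 30.4 and 29.6 at 5 h, with 3 h libraries all below mock and all above 1 h. gsdmea, a gasdermin of the pore-forming kind, had 22.7, 31.4 and 41.1 FPKM in mock, 4.81, 6.27 and 9.36 at 1 h, 16.9, 23.3 and 18.8 at 3 h and 29.9, 31.5 and 34.7 at 5 h and the lowest 1 h ratio of the named genes, 0.239. Its lowest mock library was within the 3 h range. Of 343 tested solute carriers 3 were members, or 0.875%, beside 1.52% of all tested genes. At the floor 3 of 146 tested solute carriers were members, beside 333 of all 11086 tested genes. They were SLC66A3, slc22a15 and the nucleotide sugar transporter relative SLC35C2, with 3 h ratios of 0.931, 1.13 and 0.758.

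A few genes were still well below mock at 3 h. SRCIN1, an adaptor that inhibits Src kinase, had 12.2, 14.8 and 12.3 FPKM in mock, 3.402, 5.66 and 4.92 at 1 h, 3.35, 4.84 and 3.55 at 3 h and 9.75, 11.2 and 11.1 at 5 h. Its 3 h libraries overlapped the 1 h libraries and were all below the 5 h libraries, which were themselves all below mock. YPEL3, of the Yippee family of small zinc-binding proteins, had 36.7, 23.8 and 20.1 FPKM in mock, 7.71, 5.64 and 5.28 at 1 h, 9.63, 15.7 and 11.1 at 3 h and 25.9, 19.7 and 21.2 at 5 h, and its 3 h libraries lay above 1 h and below mock. MMP28, a secreted metalloproteinase of epithelia, had 15.2, 10.8 and 18.9 FPKM in mock, 3.67, 5.16 and 5.67 at 1 h, 7.81, 8.19 and 3.97 at 3 h and 10.1, 14.03 and 13.2 at 5 h, and its 3 h and 1 h libraries overlapped. syne2b, a nesprin that links the nucleus to the cytoskeleton, and hcls1, a cortactin relative known in blood cells, had 3 h ratios of 0.479 and 0.497. The blood marker sum was 459.2 to 864.3 FPKM in the 3 h libraries and 148.5 to 309.5 FPKM in mock, and its part in the values of hcls1 was not tested.

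Other genes had 3 h means above mock. DNMT3B, which sets new DNA methylation, had 7.14, 8.35 and 7.55 FPKM in mock, 2.01, 2.43 and 3.56 at 1 h, 12.6, 10.8 and 10.5 at 3 h and 8.54, 9.32 and 10.3 at 5 h. All 5 h libraries were above mock, and all 3 h libraries were above those of 5 h. OSR2, a zinc finger factor of limb and palate development in mouse, had 14.2, 19.04 and 12.5 FPKM in mock, 6.996, 6.42 and 7.704 at 1 h, 17.6, 20.2 and 24.7 at 3 h and 14.6, 21.7 and 11.6 at 5 h. Its 3 h libraries overlapped mock. samd10a had 3 h libraries all above mock, with 15.4, 13.8 and 15.3 FPKM in mock, 7.01, 4.71 and 7.86 at 1 h, 15.5, 19.5 and 18.9 at 3 h and 18.1, 16.9 and 17.7 at 5 h. ch25hl1.1, a cholesterol 25-hydroxylase relative, had 32.3, 11.1 and 9.299 FPKM in mock, 13.3, 1.68 and 2.01 at 1 h, 25.3, 24.2 and 36.3 at 3 h and 28.4, 12.5 and 13.9 at 5 h, and dtx3la, a deltex ubiquitin ligase relative, had 18.4, 8.35 and 7.03 FPKM in mock, 10.9, 0.807 and 1.45 at 1 h, 18.8, 11.8 and 18.9 at 3 h and 20.2, 11.7 and 10.4 at 5 h. In both, the first library was far above the other two in mock and at 1 h, so the mock mean rested largely on 1 library.

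Chromatin regulators and zinc finger genes contributed 9 of 359 tested genes, or 2.51%, beside 1.52% of all tested genes. At the floor the set held 9 of 216 tested genes of the list, beside 333 of all 11086. Besides DNMT3B the 9 are ZNF362, znf451, ncoa6, TRIM44, BCL6, SIRT3 and both genes with the symbol CBX1, a heterochromatin protein. The nuclear receptor coactivator ncoa6 had 39.4, 43.4 and 44.7 FPKM in mock, 15.4, 16.3 and 23.6 at 1 h, 45.5, 50.5 and 46.1 at 3 h and 54.9, 51.2 and 45.7 at 5 h. Its 1 h libraries were below all others, and its 3 h libraries were above all mock libraries. BCL6, a repressor known in lymphocytes, had 4.93, 5.798 and 6.45 FPKM in mock, 2.202, 0.774 and 1.67 at 1 h, 4.16, 3.19 and 4.26 at 3 h and 6.68, 5.39 and 3.599 at 5 h, with 3 h libraries above 1 h and below mock. The mitochondrial deacetylase SIRT3 had a 3 h ratio of 0.541. Of the other 350 tested genes of the list, 90 were lower and 49 higher at 1 h, beside 19.1% lower and 13.9% higher of all tested genes. Ion channels, with 255 tested genes, receptor kinases with 85 and immediate early genes with 48 held no member, beside 1.52% of all tested genes. At the floor these lists held 61, 46 and 31 tested genes. In the immediate early list 36 genes were higher at 1 h, 12 did not pass and 0 were lower by limma. The S phase and mitosis list, with 149 tested genes, also held none while 75 of its other 148 genes were lower at 1 h, and 1 was left out by identifier. DNMT1 and CDCA7 of that list had means of 10.5 and 16.9 FPKM in mock, 5.26 and 3.62 at 1 h, and 17.2 and 23.1 at 5 h, past the upper bound of the rule. With 1 added to each mean, DNMT1 also missed the 1 h bound.

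Not every entry was a gene with steady values. For 6 of the 335 identifiers all 1 h libraries are listed at 0, and for 7 at least 1 mock library is listed at 0. Among them are 2 loci named 5S_rRNA, of which ENSDARG00000085621 is listed at 0 in 1 mock library and at 12.7 and 9.02 FPKM in the other two, at 0 at 1 h, and at 75.4, 39.2 and 28.1 FPKM at 3 h. These loci swung between 0 and higher values from library to library. ENOX1 swung too, with 1.303, 32.6 and 21.8 FPKM in mock, 6.71, 1.11 and 9.27 at 1 h, 20.1, 16.9 and 5.93 at 3 h and 0.892, 40.1 and 14.4 at 5 h, and the table holds 2 rows for it, of which the first was used. Both untested genes of the set, ENSDARG00000085824 and ENSDARG00000091696, had too few libraries at 1 FPKM. They are listed above 0 only in 1 GFP+ mock library, at 25.75 and 24.99 FPKM, and in the third GFP+ library of 5 h. In that 5 h library they had 24.43 and 29.38 FPKM.

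In GFP- cells, which the rule did not use, the same genes leaned lower at 1 h, by much less. Of the 333 tested genes 16, or 4.80%, were lower in GFP- cells 1 h after neomycin than in GFP- mock and none higher (limma, adjusted p under 0.05), beside 0.823% lower and 1.88% higher of all 21860 tested genes. The unadjusted p was under 0.05 for 101 of the 333, beside 2077 of the 11086 tested genes at the floor. Among the genes at the floor, 1.20% were called lower. The median log2 difference of the set was -0.21, against -0.04 for all tested genes and -0.08 for the floor genes, and 282 of the 333, or 84.7%, were below 0, against 56.4% of all tested and 64.3% of the floor genes. The count depended on every library, since leaving out any 1 of the 6 left 3 to 7 calls; it was 9 with median-of-ratios scaling, 34 with quantile scaling and 0 when only these 6 libraries were fitted. Lower calls over all tested genes moved with it, from 180 to between 38 and 116 without 1 library, 107 and 343 with these scalings and 3 with these 6 libraries alone. The lean was shared by some other genes with the same 1 h fall in GFP+ cells. The 80 that ended over the upper 5 h bound had a median log2 difference of -0.21, with 5% called lower and 72.5% below 0. The 223 tested genes that stayed under the lower 5 h bound had a median of -0.07, with 0.897% called lower and 55.6% below 0. The 6 lateral line markers that were higher in GFP+ mock and are no genes of the set, picked by their values, summed to 56.97 to 72.4 FPKM in GFP- mock libraries and 46.9 to 61.6 at 1 h, of which krt15 had means of 54.95 and 47.65 FPKM. Of these 6, TSPAN1 had means of 0.367 and 0.149 FPKM in these groups and 171.3 FPKM in GFP+ mock. GFP- means in mock and at 1 h were closer for sox21a (3.62 and 3.31 FPKM) and fndc7rs1 (1.01 and 0.874). They were also closer for negaly6 (1.14 and 1.0) and cbln20 (1.81 and 1.76). The 4 lateral line markers higher in GFP- mock summed to 138.3 to 166.9 FPKM in GFP- mock libraries and 146.6 to 154.5 at 1 h. The part of stray GFP+ cells in the lower values was not tested.

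VSTM4, an immunoglobulin domain protein, had the largest called fall, with 2.68, 2.15 and 1.75 FPKM in GFP- mock and 0.639, 0.657 and 0.523 FPKM in GFP- cells at 1 h, a log2 difference of -0.98 (SE 0.14, n = 3 libraries a group, limma adjusted p = 0.000504). The 2 groups did not overlap. RHBDL2 had 8.92, 6.73 and 5.05 FPKM in GFP- mock and 2.92, 3.94 and 4.11 at 1 h, a log2 difference of -0.74 (SE 0.15, n = 3 libraries a group, limma adjusted p = 0.0122). The tensin tns3.2, which links integrins to actin, had 21.7, 19.2 and 22.9 and 9.11, 16.1 and 12.8 FPKM, a log2 difference of -0.73 (SE 0.16, n = 3 libraries a group, limma adjusted p = 0.0174). In both, each 1 h library was below each mock library. BMP3 went from 15.5, 11.2 and 8.23 FPKM to 6.73, 6.39 and 6.29 FPKM, a log2 difference of -0.72 (SE 0.16, n = 3 libraries a group, limma adjusted p = 0.0226). SOX9 went from 16.7, 15.2 and 22.8 FPKM to 9.41, 10.9 and 12.7 FPKM, a log2 difference of -0.67 (SE 0.17, n = 3 libraries a group, limma adjusted p = 0.042). PPFIBP1, a liprin of cell edges, had 8.99, 6.01 and 4.89 and 4.46, 3.69 and 3.81 FPKM, a log2 difference of -0.58 (SE 0.15, n = 3 libraries a group, limma adjusted p = 0.0429). All 6 lost their call when only the 2 groups were fitted, with the same differences, and VSTM4 kept it in the other settings. The other 5 also lost theirs without any 1 of 2 or more libraries, SOX9 and PPFIBP1 also with no filter on low values and PPFIBP1 with median-of-ratios scaling. Over the fits without 1 library their differences ran from -0.93 to -0.37. Of the other called genes, picked for mention after their values were seen, DNMT3B fell by 0.54 on the log2 scale (SE 0.12, limma adjusted p = 0.0173), the translation inhibitor PDCD4 by 0.49 (SE 0.12, limma adjusted p = 0.0261) and the peroxisomal enzyme CROT by 0.53 (SE 0.12, limma adjusted p = 0.0205).

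**Figure D4:**
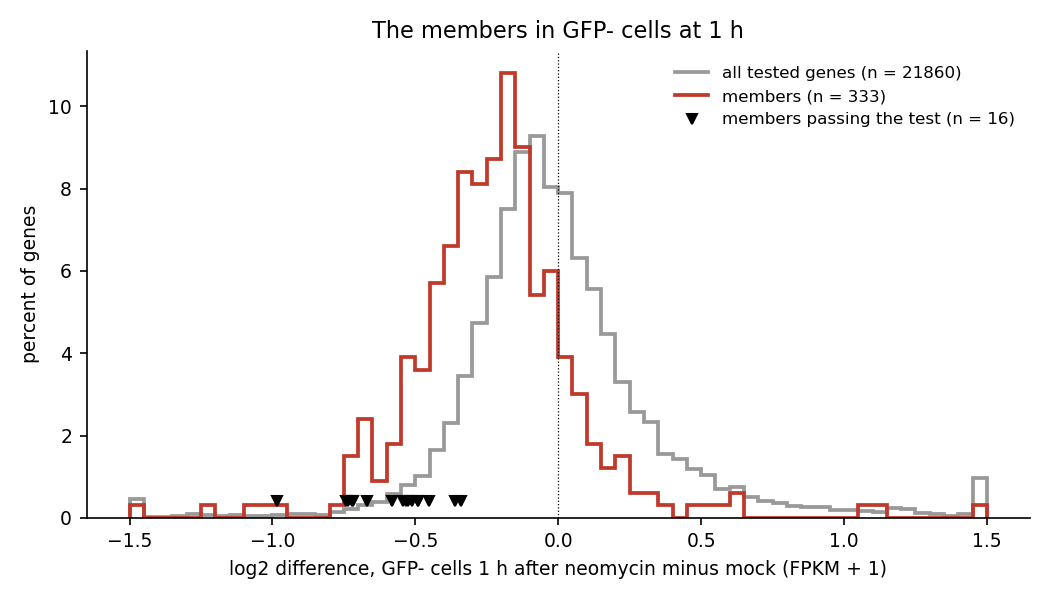
Distribution of the log2 difference between GFP- cells 1 h after neomycin and GFP- mock cells (FPKM + 1), as percent of genes, for all 21860 tested genes (grey) and the 333 tested genes of the set (red); values beyond the axis are put in the end bins, and triangles mark the 16 genes of the set that passed the test. The red curve lies to the left of the grey one, with medians of -0.21 and -0.04.

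At 3 h in GFP- cells, 12 of the 333 genes were lower than GFP- mock and 2 higher, beside 2.11% lower and 2.31% higher of all tested genes. The share called lower, 3.60%, was not far above the background, but the set still leaned lower. Its median log2 difference was -0.14, against 0.001 for all tested and -0.005 for the floor genes. Of the set 70.3% were below 0, against 49.2% of all tested and 50.8% of the floor genes. Genes with the same GFP+ fall that stayed under the lower 5 h bound had a median of -0.25. Those that ended over the upper bound had one of 0.05. BDH2, a short-chain dehydrogenase, had 27.9, 26.3 and 21.6 FPKM in GFP- mock and 13.4, 15.2 and 13.4 FPKM at 3 h, a log2 difference of -0.80 (SE 0.14, n = 3 libraries a group, limma adjusted p = 0.00528). YPEL3 had 32.2, 31.1 and 27.8 and 17.9, 17.1 and 17.4 FPKM, a log2 difference of -0.76 (SE 0.19, n = 3 libraries a group, limma adjusted p = 0.0298). The groups of both genes did not overlap. The BDH2 call was lost when only the 2 groups were fitted, and the YPEL3 call without any 1 of 5 of the 6 libraries, all but the third mock library, with differences of -0.78 to -0.72. In GFP+ cells YPEL3 had a 3 h ratio of 0.471; the populations have separate mock libraries. The fucose kinase fcsk, TMEM230, the E-box factor USF1 and COMMD7 had log2 differences of -0.52, -0.52, -0.48 and -0.47, with limma adjusted p of 0.0168, 0.0243, 0.032 and 0.0246. Each of these calls was lost when only the 2 groups were fitted. Counting that fit, the call was lost in 4 other settings for fcsk, 6 for TMEM230, 7 for USF1 and 4 for COMMD7, the rest being fits without 1 library. The USF1 relative usf1l was the 1 gene called lower at both 1 h and 3 h. Leaving out any 1 of the 6 libraries left 2 to 7 lower calls and 0 to 2 higher ones, and 20 genes were called lower with quantile scaling and 1 when only these 6 libraries were fitted. Over all tested genes the 461 lower calls became 111 to 281 without 1 library, 601 with quantile scaling and 20 with these 6 libraries alone.

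klf17 went the other way in GFP- cells. It had 6.78, 7.19 and 4.86 FPKM in GFP- mock, 7.62, 7.897 and 5.32 at 1 h, 12.2, 10.9 and 10.6 at 3 h and 17.02, 14.6 and 10.6 at 5 h. Every 3 h and 5 h library was above every mock library, with log2 differences of 0.76 (SE 0.19, n = 3 libraries a group, limma adjusted p = 0.0282) at 3 h and 1.04 (SE 0.19, n = 3 libraries a group, limma adjusted p = 0.0101) at 5 h. In GFP+ cells every 3 h library was below every mock library. The other gene called higher at 3 h, ENSDARG00000057669, had no symbol. At 5 h klf17 was the 1 gene called higher and no gene of the set was called lower (limma), beside 0.48% higher and 0.563% lower of all tested genes. The unadjusted p was under 0.05 for 37 of the 333 tested genes of the set, beside 1537 of the 11086 tested genes at the floor. The set had a median log2 difference of -0.10 at 5 h, against -0.03 for all tested genes. Of the set 73.0% were below 0, against 56.2% of all tested and 56.1% of the floor genes. Genes with the same GFP+ fall that stayed under the lower 5 h bound had a median of -0.18. Those that ended over the upper bound had one of 0.04. Both calls of klf17 were lost when only the 2 groups compared were fitted. The 3 h call was lost without the third mock library or any 1 of the 3 h libraries, with differences of 0.61 to 0.80, and the 5 h call without the third mock or the second 5 h library, with differences of 0.89 and 1.00.

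The genes of the set were not of 1 kind by population. At 3 h, with both populations of the same date, 144 of the 333 tested genes, or 43.2%, were higher in GFP+ than in GFP- cells, 102, or 30.6%, were lower and 87 did not pass (limma, adjusted p under 0.05). Of all tested genes 23.9% were higher and 40.0% lower. Since the rule asks for 5 FPKM in GFP+ mock cells, the genes at that floor are the nearer background, with 35.0% called higher and 28.5% called lower. The median log2 difference of the set was 0.19, against -0.19 for all tested genes and 0.05 for the floor genes. Differences of 8-fold or more on the FPKM + 1 scale were called for 20 genes in the direction of GFP+ and 4 in that of GFP-. The rule set its floor of 5 FPKM in GFP+ cells only. No 8-fold counts were made for the genes at the floor, so this imbalance cannot be read as a property of the set. Another scaling moved the median of all genes in this contrast by 0.09 with the median of ratios and by 0.19 with quantiles, and directions of small differences are relative to that. In GFP- cells at 3 h the blood markers summed to 20760 to 32400 FPKM and the neuron markers to 545.5 to 617.8 FPKM, and the part of those cell types in the genes higher in GFP- cells was not tested.

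Among genes higher in GFP+ cells, krt1-c5 had 278, 332 and 244 FPKM in GFP+ and 2.62, 2.48 and 1.68 FPKM in GFP- cells at 3 h, a log2 difference of 6.45 (SE 0.18, n = 3 libraries a group, limma adjusted p = 3.68e-15). The chemokine-like gene cxl34b.11 had 74.7, 97.7 and 57.7 and 3.398, 3.86 and 1.54 FPKM, a log2 difference of 4.33 (SE 0.38, n = 3 libraries a group, limma adjusted p = 8.36e-09). nkx2.7 had 23.04, 21.9 and 17.6 and 0.112, 0.238 and 0.181 FPKM, a log2 difference of 4.21 (SE 0.20, n = 3 libraries a group, limma adjusted p = 3.33e-12). None of these overlapped between populations. bicdl2, a relative of dynein cargo adaptors, had 35.5, 37.6 and 37.5 and 1.28, 1.23 and 1.16 FPKM, a log2 difference of 4.09 (SE 0.15, n = 3 libraries a group, limma adjusted p = 1.48e-13). six2b and FOXQ1 differed by 4.08 (SE 0.24, n = 3 libraries a group, limma adjusted p = 4.43e-11) and by 3.88 (SE 0.29, n = 3 libraries a group, limma adjusted p = 8.27e-10) on the log2 scale. Of the 15 transcription factors of the set, 12 were higher in GFP+ cells, DLX2 was lower, and MAF and HOXC5 did not pass. Of the 202 tested factors of the list at the floor of 5 FPKM in GFP+ mock, 49.0% were higher and 31.2% lower.

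Of the genes lower in GFP+ cells, gng14, a G protein gamma subunit, had 3.61, 6.41 and 5.197 FPKM in GFP+ and 77.7, 44.9 and 48.9 FPKM in GFP- cells at 3 h, a log2 difference of -3.24 (SE 0.27, n = 3 libraries a group, limma adjusted p = 5.14e-09). MSI1, an RNA-binding protein of neural progenitors, had 30.1, 29.6 and 23.7 and 105, 125 and 114 FPKM, a log2 difference of -2.01 (SE 0.14, n = 3 libraries a group, limma adjusted p = 3.98e-10). TCF7L2 had 33.6, 44.9 and 30.4 and 117, 118 and 117 FPKM, a log2 difference of -1.69 (SE 0.22, n = 3 libraries a group, limma adjusted p = 1.76e-06). In these 3 genes every GFP- library was above every GFP+ library. The adaptor SKAP2 and the autophagy kinase ULK1 differed by -2.25 (SE 0.24, n = 3 libraries a group, limma adjusted p = 1.03e-07) and by -1.61 (SE 0.16, n = 3 libraries a group, limma adjusted p = 4.28e-08) on the log2 scale. ENOX1, whose GFP+ values swung between libraries, differed by -3.03 (SE 0.96, n = 3 libraries a group, limma adjusted p = 0.0101). Of the 6 Wnt genes of the set WNT4, WNT7B, DVL1 and NKD2 were higher in GFP+ cells, and TCF7L2 and VANGL1 lower, beside 70.2% higher and 14.0% lower of the 57 tested Wnt genes at the floor. Of the 9 chromatin and zinc finger genes none was higher in GFP+ cells; 7 were lower, and znf451 and TRIM44 did not pass. Of the 216 tested genes of that list at the floor, 9.72% were higher and 64.8% lower, so the 7 were near the share of their list.

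**Figure D5:**
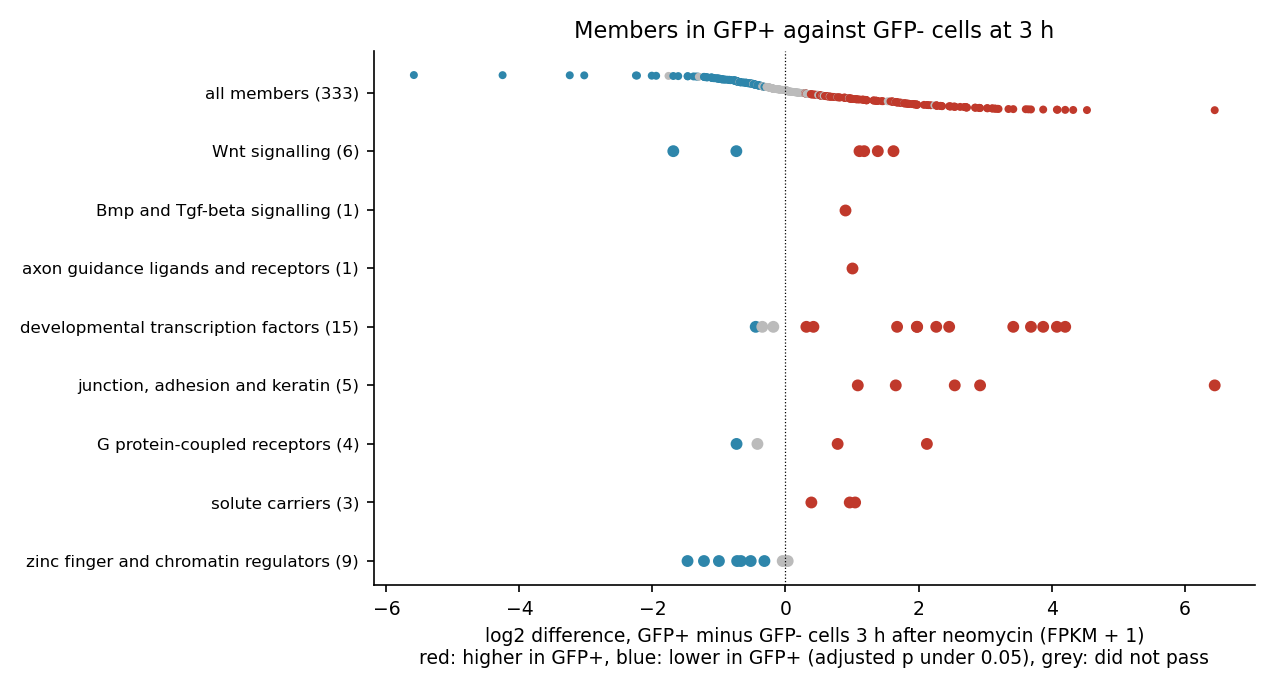
Log2 difference between GFP+ and GFP- cells 3 h after neomycin (FPKM + 1) for the 333 tested genes of the set and for its genes in each pathway list reported here, 1 point per gene; red is higher in GFP+, blue lower and grey did not pass. Points of the transcription factor list lie mostly at positive values, up to 4.21 for nkx2.7, and those of the chromatin list reach no higher than 0.03 for znf451.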

How the data were processed

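RNA of sorted GFP+ and GFP- cells was measured in 24 libraries of polyadenylated RNA made with a TruSeq kit, per the labels' protocols. The authors deposited FPKM values, 1 column per library, made with CASAVA 1.8.2, TopHat 1.4.1 and Cufflinks 1.3 on danRer7, per the submitters' processing notes. Annotation release, strand setting and filters: not given in the sources used here. FPKM is relative to all fragments of a library, so abundant transcripts shift the rest, and total counts are unknown. Relative depth was the most frequent ratio between libraries of genes under 0.15 FPKM, in bins of 0.02 log2.

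The first of the 31199 rows for each of 31087 identifiers was used, which left out 112 repeats. Genes at 1 FPKM or more in at least 3 libraries (21860) were tested on log2(FPKM + 1), so fold changes of low genes are understated. A model with 8 group means was fitted to all 24 libraries with limma 3.58.1 (R 4.3.3), with an intensity trend in the variance. Contrasts were tested two-sided at 0.05 after Benjamini-Hochberg adjustment across the tested genes. The contrasts were GFP- neomycin at 1, 3 and 5 h against GFP- mock and GFP+ against GFP- at 3 h; GFP+ at 1 h against mock served only for genes outside the set. The script was tested on simulated data.

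The members, pathway lists, markers and tests were chosen with earlier results of these data known. Genes were named when their symbol was no clone name and they were among the 12 lowest 1 h ratios, the 6 lowest or highest 3 h ratios, the 6 largest called differences of a contrast in a direction, up to 4 per pathway list, or the 3 nearest each bound; exceptions are stated. The result of 1 pathway list is not reported here. Gene positions and sequences were not used here. The other settings were a pseudocount of 0.1, no filter or one at 5 FPKM, median-of-ratios or quantile scaling, the compared groups alone, a replicate block, leaving out each library, and stricter bounds for the set.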

Additional observations from a re-analysis of the deposited data

Results flagged for a closer look

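For 3 genes of the set every GFP+ library at 3 h was below every GFP+ mock library while every GFP- library at 3 h was above every GFP- mock library. Whether the change differed between the populations was not tested. For klf17, which was called higher in GFP- cells at 3 h, the GFP- log2 difference was 0.764. SRCIN1 had a GFP- log2 difference of 0.292, which did not pass (limma adjusted p = 0.229), with GFP- means of 3.85 FPKM in mock and 4.94 FPKM at 3 h. nkx2.7 had one of 0.102, which did not pass (limma adjusted p = 0.846), from GFP- levels of 0.107 FPKM or less in mock to 0.238 FPKM or less at 3 h.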

How the results depend on the processing

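The set itself followed the bounds. It held 99 genes with a 1 h ratio of 0.4 or less, 221 with a mock mean of 10 FPKM or more, and 462 with FPKM + 0.1 in the ratio, of which 323 were shared. Scaling by the median of ratios gave 295 genes (244 shared) and quantile scaling 244 (198 shared). Without 1 library of mock, 1 h or 5 h it held 317 to 440, and 122 genes were chosen each time. The median 3 h ratio of 0.806 was 0.709 and 0.722 with those 2 scalings.

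In GFP- cells at 1 h, 9 genes were lower and 1 higher with median-of-ratios scaling, 34 and 1 with quantile scaling, 0 were lower in the compared groups alone, and 3 to 7 without 1 library; lower calls over all genes were 180 in the fit reported, 3 in the compared groups alone and 38 to 116 without 1 library. At 3 h, 20 were lower with quantile scaling, 1 was lower and 1 higher in the compared groups alone, and 2 to 7 were lower and 0 to 2 higher without 1 library, while over all genes 461 lower calls became 601, 20 and 111 to 281. At 5 h, 0 were higher in the compared groups alone and 0 to 2 without 1 library. The cause was not tested. Between populations at 3 h, 137 to 158 genes were higher and 81 to 107 lower in all settings. Of 350 values of 26 results for named genes, 286 kept direction and call, 64 lost the call and 0 reversed; 11 of the 12 named differences between populations kept theirs in every setting.

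The labels do not say that libraries with the same number were paired. Correlations of their deviations ran from -0.004 to 0.113 for the same number and from -0.081 to 0.046 for different numbers. Between populations at 3 h they were 0.037, 0.082 and 0.113 for the same number and at most 0.003 for different numbers. Whether a number marks a shared preparation was not tested. With the replicate number as a block, 20 genes were lower in GFP- cells at 1 h, 14 lower and 2 higher at 3 h, and 1 higher at 5 h, and between populations 145 were higher and 101 lower, or 146 and 103 with numbers kept within each sort. Depth in reads is unknown, so no floor was given for values listed at 0.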
